A study of Bos taurus with 11 samples.

Results

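Translation initiation and elongation factors are the proteins that bring ribosomes to mRNA and drive them along it. Members were chosen by name: every transcript in the deposited tables whose RefSeq accession maps to a bovine gene symbol beginning with EIF or EEF, apart from the Y-linked EIF1AY. This gave 55 of the 12056 transcripts of the series, from 54 of the 65 genes with such symbols in the ARS-UCD2.0 annotation, EIF4E2 being listed as 2 transcripts. The other 11 genes, among them EIF4G1, EIF4G3, EIF5B, EIF3F, EEF1D and EIF2AK4, were not analysed here.

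RNA was sequenced from single in vitro bovine early blastocysts on day 7. There were 3 embryos of WT control, 4 of GATA3 KO and 4 of CDX2 KO. All of them had been injected as zygotes with mRNA of the cytosine base editor BE3. KO embryos had in addition received sgRNAs against GATA3 or CDX2 to create premature stop codons, and a single injected embryo can hold cells with different edits. WT control embryos thus carried the editor without guides. One table compares GATA3 KO embryos with the WT control embryos, and another compares CDX2 KO embryos with the same WT control embryos, so the 2 comparisons share their controls and each was normalised on its own. KO embryos are called here by the numbers of their columns (3 to 6 for GATA3 KO, 2 to 5 for CDX2 KO). A whole blastocyst mixes trophectoderm and inner cell mass, so a lower share of one cell type and less RNA per cell cannot be told apart.

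Initiation starts when eIF2, a trimer of alpha (EIF2S1), beta (EIF2S2) and gamma (EIF2S3) subunits, delivers the initiator tRNA with GTP to the small ribosomal subunit, with the help of eIF1, eIF1A and the many-subunit scaffold eIF3. eIF4F, made of the cap-binding eIF4E, the helicase eIF4A and the scaffold eIF4G, recruits the mRNA, and the 4E-BP proteins hold eIF4E back. eIF5 triggers GTP hydrolysis, eIF2B reloads eIF2 with GTP, and the eIF2 alpha kinases slow that step under stress. In elongation, eEF1A brings aminoacyl-tRNA to the ribosome, the eEF1B subunits reload eEF1A, and eEF2 moves the ribosome by one codon.

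Total recovered counts ran from 150057 to 540775 per embryo in the GATA3 KO table and from 100731 to 662962 in the CDX2 KO table. The same WT control embryos held 1.78 to 1.85 times as many counts on the shared transcripts in the CDX2 KO table, for a reason not given in the sources used here. GATA3 itself had 79.9 ± 8.17 normalised counts (SD, n = 3) in the controls, against 12.2 ± 1.58 (SD, n = 4) after its own knockout. CDX2 was low in its table, at 8.94 ± 2.09 in WT control and 3.57 ± 1.34 in CDX2 KO embryos. These values rested on 2 to 14 recovered counts per embryo, beside a floor of 3 counts. Of 8 trophectoderm markers, all listed, KRT8 was at 3051 ± 1287 normalised counts (SD, n = 3) in WT control embryos of the GATA3 KO table, while ELF3 (14.2 ± 8.30), CDX2 (7.16 ± 2.53) and TFAP2A (7.01 ± 3.85) were low, and the markers of cumulus or granulosa cells (2 of 8 listed in the GATA3 KO table, 7 in the CDX2 KO table) together had 2 to 13 and 22 to 55 counts per embryo. In the GATA3 KO table, Y-linked transcripts had 29 to 98 counts in the WT control embryos and 68 in GATA3 KO embryo 6, but 0, 0 and 2 in GATA3 KO embryos 3, 4 and 5. In the CDX2 KO table the WT control embryos had 80, 149 and 46, and of the CDX2 KO embryos only embryo 5 had any (155).

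Of the members, 52 were listed in the GATA3 KO table and 55 in the CDX2 KO table, EEF2K, EIF2AK2 and EEF1AKMT3 being listed in the latter alone. A mean of at least 10 normalised counts, the filter for testing, was reached by 45 and 46 of them. Members were compared with limma on log2(normalised count + 1), where the added 1 shrinks the change of low transcripts. A transcript was called changed with a Benjamini-Hochberg adjusted p, taken over all transcripts tested, no greater than 0.05 and a fold change of 1.5 or more, or 0.6 or less. The labels do not say which embryos shared a cow, a fertilisation or a culture drop, so p-values measure the spread between these embryos only.

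In GATA3 KO embryos, 3 members were called higher and 0 were called lower. They were EIF4A2, one of the paralogous eIF4A helicases, and the alpha and gamma subunits of eIF2, EIF2S1 and EIF2S3. On the scale of the test they rose 3.28-fold (EIF4A2), 3.81-fold (EIF2S1) and 3.09-fold (EIF2S3), from WT means of 14.8, 15.9 and 19.9 normalised counts. These log2 fold changes of 1.71, 1.93 and 1.63 were above those of edgeR (1.67, 1.54 and 1.44) and DESeq2 (1.67, 1.59 and 1.46). Of all 4271 transcripts tested with limma, 1.55% were called higher and 0.468% were called lower. None (0) of the 46 members tested in CDX2 KO was called, as were 0.0% of all 5719 transcripts tested in either direction.

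**Figure D1:**
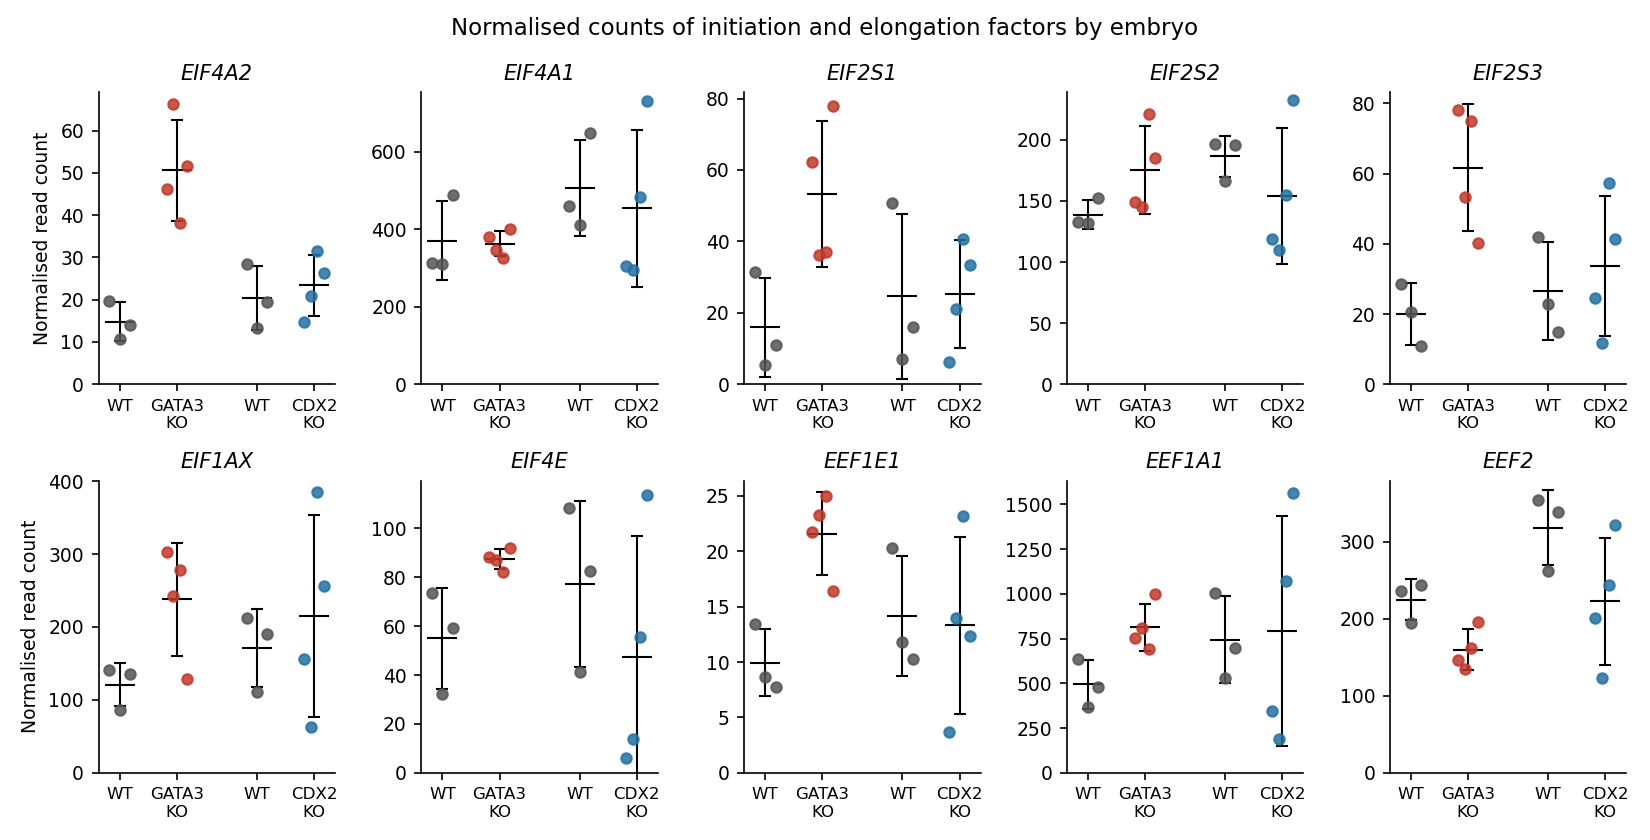
Normalised read count (linear axis from 0) of 10 named members in each embryo. Points are embryos, grey for WT control, red for GATA3 KO and blue for CDX2 KO, with the mean and SD as bars cut at 0, and the left and right pair of groups in each panel come from separately normalised tables. EIF4A2, EIF2S1 and EIF2S3 separated in the GATA3 KO table and overlapped in the CDX2 KO table.

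In WT control embryos 1 to 3, EIF4A2 (NM_001034044) had 19.7, 10.8 and 13.99 normalised counts, whereas it had 46.3, 66.3, 38.1 and 51.7 among the GATA3 KO embryos, taken from 3 to 6. The lowest KO embryo lay well above the highest WT control embryo. These values rested on 9 to 25 recovered counts in WT control and 32 to 154 in KO embryos. EIF4A2 thus rose by a log2 fold change of 1.71 (standard error 0.30, 95% confidence interval 1.08 to 2.34, limma adjusted p = 0.014). The call was lost without WT control embryo 2 (adjusted p = 0.091 from limma), without GATA3 KO embryo 3 (0.059) or without GATA3 KO embryo 4 (0.051). The log2 fold changes were 1.52, 1.75 and 1.58 in these fits, which called only 1, 1 and 2 of all 4271 transcripts.

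Its paralog EIF4A1, which encodes the main eIF4A helicase of most cells, did not share this pattern. EIF4A1 had 313, 311 and 488 normalised counts in the controls and 379, 346, 326 and 401 after GATA3 KO. All KO values fell inside the WT range. The log2 fold change was 0.00 (95% confidence interval -0.49 to 0.48, limma adjusted p = 0.997). As a result the share of EIF4A2 in the counts of the 2 paralogs was 5.92, 3.36 and 2.79% in WT control and 10.9, 16.1, 10.5 and 11.4% in GATA3 KO embryos. The 95% Wilson intervals, which cover counting error only, were at most 8.60% at the upper end in WT control embryo 1 and at least 7.51% at the lower end in GATA3 KO embryo 5. This pair of genes was singled out after its values were seen, so no test is given. In the CDX2 KO table the share was 5.85, 3.15 and 2.92% in WT control and 4.58, 6.62, 6.11 and 3.48% in CDX2 KO embryos, with overlapping groups. The paralogs are closely similar in sequence, and how reads that fit both were counted is not given in the sources used here.

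**Figure D2:**
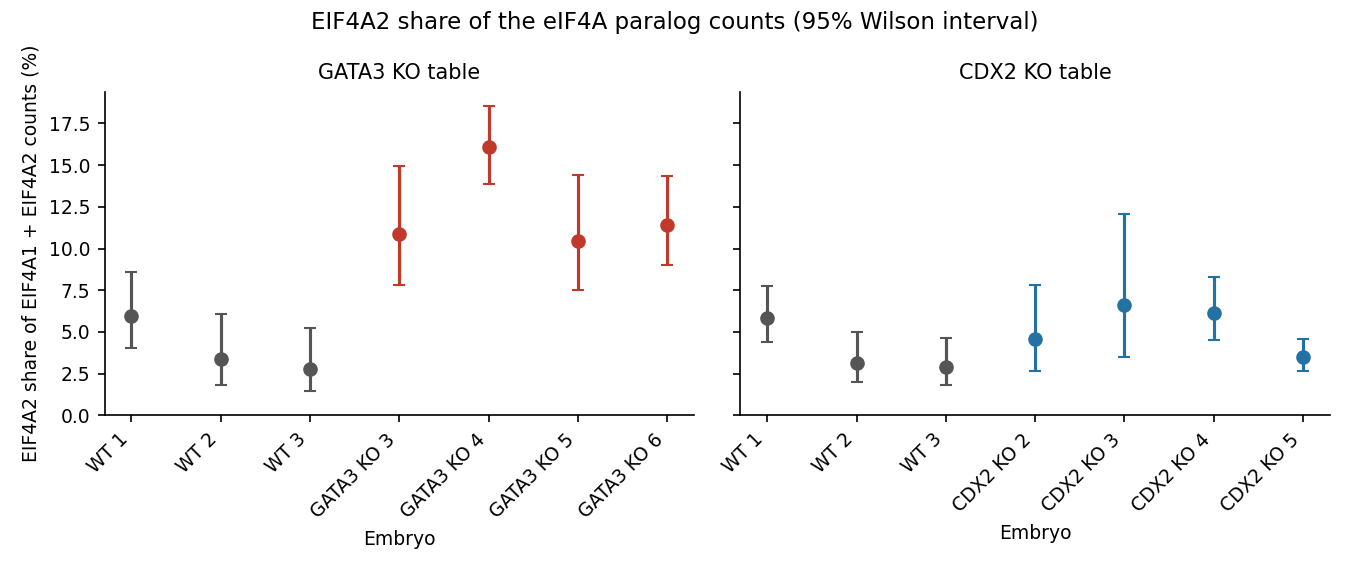
EIF4A2 as a percentage of the recovered counts of EIF4A1 and EIF4A2 in each embryo, with 95% Wilson intervals. Red points (GATA3 KO) lie between 10.5 and 16.1%, above all 3 grey points (WT control), and blue points (CDX2 KO) overlap the grey ones.

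EIF2S1 (NM_175813), the eIF2 subunit that stress kinases phosphorylate, had 31.6, 5.40 and 10.9 normalised counts in WT control embryos and 62.2, 36.2, 36.9 and 78.0 in GATA3 KO embryos. The groups did not overlap, but WT control embryo 1 was close to the lower KO embryos and the WT values spread widely (coefficient of variation 86.5%). The log2 fold change was 1.93 (standard error 0.43, 95% confidence interval 1.01 to 2.84, limma adjusted p = 0.031), from as few as 5 and 7 counts in WT control embryos 2 and 3. With edgeR on the recovered counts it was 1.54 with an adjusted p of 0.052, and the call was lost in limma without WT control embryo 2 (adjusted p = 0.174), WT control embryo 3 (0.087), GATA3 KO embryo 3 (0.103) or GATA3 KO embryo 4 (0.051). Its log2 fold changes in these 4 limma fits were 1.39, 1.83, 1.83 and 2.09.

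EIF2S3 (NM_001046117), the tRNA- and GTP-binding subunit, lies on chromosome X in the ARS-UCD2.0 annotation. Its normalised counts were 28.4, 20.53 and 10.9 in WT control and 78.1, 53.4, 75.03 and 40.2 in GATA3 KO embryos. All 4 KO embryos were higher, and the lowest of them was embryo 6, which had 68 Y-linked counts. The log2 fold change was 1.63 (standard error 0.34, 95% confidence interval 0.93 to 2.33, limma adjusted p = 0.023). Leaving out WT control embryo 2 or 3 or GATA3 KO embryo 3, 4 or 5 raised the limma adjusted p to between 0.051 and 0.103.

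EIF2S2, the third eIF2 subunit, had 133, 132 and 152 normalised counts in WT control embryos against 149, 145, 222 and 186 in GATA3 KO embryos. KO embryos 3 and 4 lay inside the WT range. Its log2 fold change was 0.31 (95% confidence interval -0.18 to 0.81, limma adjusted p = 0.444), an interval that lies wholly below those of EIF2S1 and EIF2S3. The difference between the subunits was not tested. Of the other members grouped with eIF2, EIF2A, a separate initiator tRNA-binding protein, was above every WT control embryo in all 4 KO embryos (17.4 ± 2.70, SD, n = 3, against 32.6 ± 8.81, n = 4; log2 fold change 0.84, limma adjusted p = 0.127). EIF2D, an alternative tRNA-delivery factor, had KO values on both sides of the WT range (log2 fold change 0.04, limma adjusted p = 0.974).

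The Y-linked counts divided the GATA3 KO embryos, so the 3 called members were looked at against them. Among the embryos with more than 2 Y-linked counts, GATA3 KO embryo 6 (51.7 for EIF4A2, 78.0 for EIF2S1 and 40.2 for EIF2S3) was above all 3 WT control embryos. With Y-linked expression as a covariate, the log2 fold changes were 1.77, 2.55 and 1.07, and none was called (limma adjusted p = 0.214, 0.202 and 0.428), nor were more than 1 of the 4271 transcripts. Without GATA3 KO embryo 6 the 3 calls remained. Since 3 of the 4 KO embryos and 0 of the 3 WT control embryos had few or no Y-linked counts, that difference and the knockout are largely confounded in this fit.

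A contrast of this kind was seen for EIF1AX, the X-linked gene of eIF1A, which promotes scanning to the start codon. It had 140, 86.5 and 135 normalised counts in WT control embryos and 302, 243 and 278 in GATA3 KO embryos 3 to 5, but 128 in embryo 6. Embryos 3 to 5 were thus clear of the WT range and embryo 6, with 68 Y-linked counts, was inside it. The log2 fold change was 0.93 (95% confidence interval 0.32 to 1.55, limma adjusted p = 0.081), 0.12 with the Y-linked covariate, and it was called without embryo 6 (adjusted p = 0.021). In the CDX2 KO table EIF1AX did not follow the Y-linked counts in this way. It had 213, 111 and 190 normalised counts in WT control and 156, 62.9, 385 and 256 in CDX2 KO embryos 2 to 5. Of these KO embryos only embryo 5 had Y-linked counts (log2 fold change 0.10, limma adjusted p = 0.979). The part of the sex chromosomes in the changes of EIF1AX and EIF2S3 was not tested beyond these values.

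Among the other eIF1 members, EIF1, the start codon fidelity factor, and its paralog EIF1B were above every WT control embryo in all GATA3 KO embryos. EIF1 went from 127 ± 15.9 (SD, n = 3) to 206.5 ± 23.9 (SD, n = 4) normalised counts, a log2 fold change of 0.70 (limma adjusted p = 0.086). EIF1B went from 20.7 ± 4.83 to 38.9 ± 8.44, a log2 fold change of 0.88 (limma adjusted p = 0.093). Neither passed the threshold. EIF1AD, named for its eIF1A-like domain, overlapped (log2 fold change -0.36, or 0.08 without WT control embryo 3), and with a KO mean of 9.24 it was tested only because of its level in WT control embryos.

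Most tested eIF4 members had higher values in GATA3 KO embryos. Of the 10 listed transcripts 8 were tested, 6 had a log2 fold change above 0, 1 was called, and 5 did not overlap with WT control, all of them higher. Over all transcripts tested, 57.2% had a log2 fold change above 0, 1.55% were called higher and 11.9% lay above every WT control embryo. The median of the group was 0.64, beside 0.11 over all transcripts. EIF4E, the cap-binding subunit, had 73.4, 32.4 and 59.1 normalised counts in WT control embryos and 88.3, 87.0, 82.2 and 92.0 in GATA3 KO embryos. The KO values were tightly grouped above the spread of the controls, and its log2 fold change was 0.73 (95% confidence interval 0.15 to 1.32, limma adjusted p = 0.139), or 0.40 without WT control embryo 2 (limma adjusted p = 0.484). EIF4A3, the eIF4A-like helicase of the exon junction complex, had 44.1 ± 9.55 (SD, n = 3) and 72.2 ± 4.74 (SD, n = 4) normalised counts (log2 fold change 0.72, limma adjusted p = 0.114). EIF4B, a cofactor of eIF4A, had a log2 fold change of 0.71 (limma adjusted p = 0.127), and EIF4G2, an eIF4G relative without the eIF4E-binding site, of 0.57 (limma adjusted p = 0.158). The lowest was a transcript of EIF4E2, a cap-binding homolog that competes with eIF4E (log2 fold change -0.67, limma adjusted p = 0.465). Its KO mean was 7.49 normalised counts, so it was tested only because of its level in WT control embryos, and its log2 fold change ran from -1.09 (without WT control embryo 1) to -0.18 (without WT control embryo 3).

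The 12 listed subunits of eIF3, the largest group, divided evenly. In GATA3 KO embryos 6 had a log2 fold change above 0 and 6 below, with a median of 0.00 and 0 calls. The highest was EIF3M, at 31.4 ± 7.93 (SD, n = 3) normalised counts in the controls, against 56.9 ± 13.0 (SD, n = 4) in KO embryos (log2 fold change 0.84, limma adjusted p = 0.095), and EIF3G (0.47, limma adjusted p = 0.261) also did not overlap. The lowest was EIF3B, the RNA-binding core subunit, at -0.38 (limma adjusted p = 0.378). EIF3CL, EIF3D and EIF3B each had 3 of 4 KO embryos below every WT control embryo, and EIF3L (log2 fold change 0.64, limma adjusted p = 0.196) had 3 of 4 above. EIF3A, the largest subunit, differed by -0.09 (95% confidence interval -0.58 to 0.40).

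**Figure D3:**
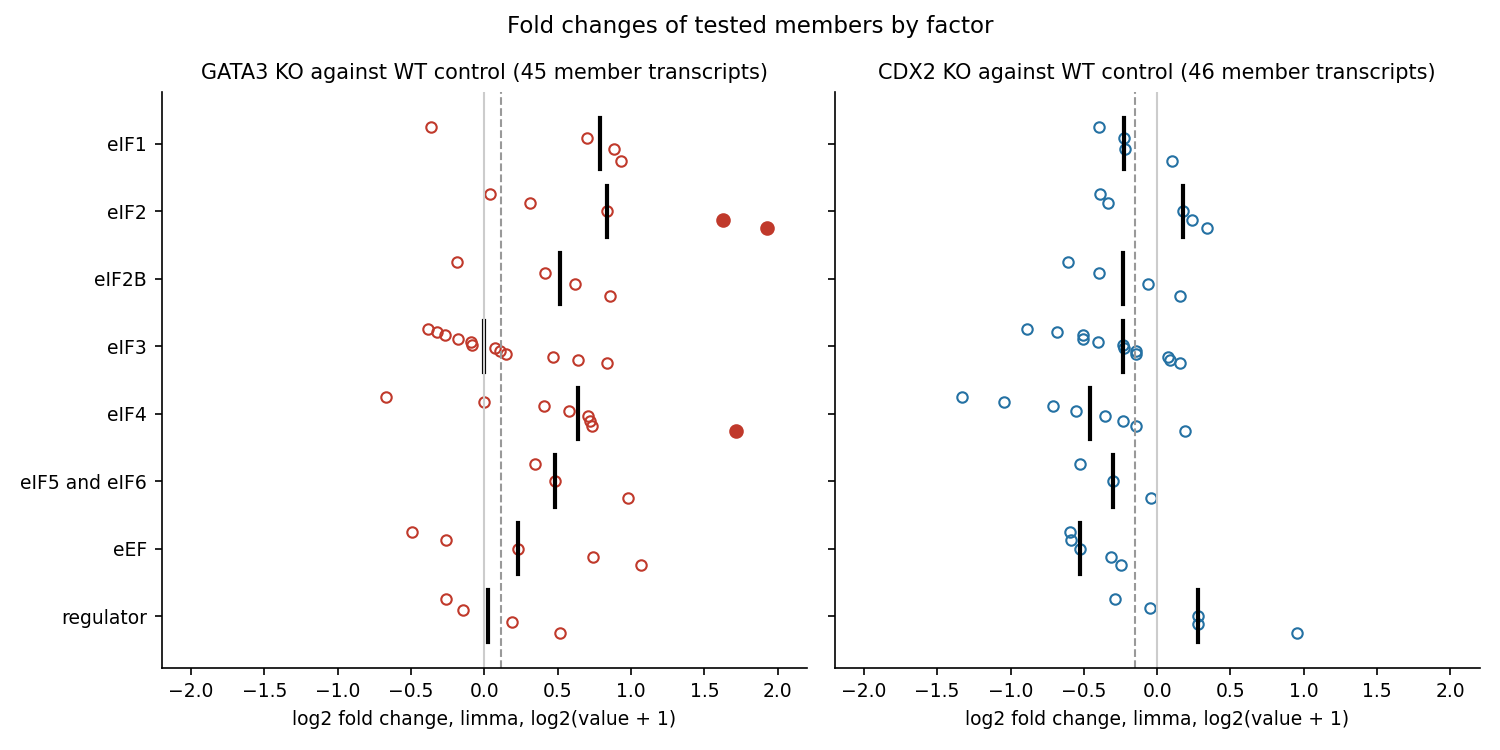
Log2 fold change (limma, log2(value + 1)) of each tested member in GATA3 KO (left, 45 transcripts) and CDX2 KO (right, 46 transcripts) by factor. Each circle is 1 transcript, filled where it was called, the black bar is the median of the factor, the dashed line the median of all transcripts tested and the solid grey line 0. The eIF1, eIF2 and eIF4 medians lie at 0.79, 0.84 and 0.64 in GATA3 KO, and that of eIF3 at 0.00.

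For eIF2B, 3 of the 4 listed subunits had a log2 fold change above 0 in GATA3 KO embryos and 0 were called. They ran from EIF2B4 (-0.19) to EIF2B1, the regulatory alpha subunit (0.85, limma adjusted p = 0.261), with a median of 0.52, and every one overlapped with WT control. EIF5, EIF5A and EIF6 were all above 0, with a median of 0.48, which was 0.20 without WT control embryo 2. EIF6, which keeps free large ribosomal subunits from joining, had 52.1, 19.4 and 20.2 normalised counts in WT control and 65.1, 46.1, 44.1 and 69.8 in GATA3 KO embryos. Only WT control embryo 1 reached into the KO range, and the log2 fold change was 0.98 (95% confidence interval 0.28 to 1.68, limma adjusted p = 0.103). EIF5A, the hypusine-containing factor that helps stalled ribosomes, was 306, 193 and 317 against 256, 320, 294 and 543 (log2 fold change 0.35, limma adjusted p = 0.470), and only KO embryo 6 stood far above the controls.

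The elongation factors had values on both sides of the controls. EEF1A1, the eEF1A gene of most embryonic cells, had 637, 366 and 482 normalised counts in WT control and 753, 811, 694 and 998 in GATA3 KO embryos. The groups did not overlap, and the log2 fold change was 0.74 (standard error 0.24, 95% confidence interval 0.24 to 1.24, limma adjusted p = 0.085). EEF2, by contrast, had 236, 195 and 244 in WT control and 146, 135, 162 and 196 in GATA3 KO embryos. Embryos 3 to 5 were below the whole WT range and embryo 6 was level with the lowest of them (log2 fold change -0.50, 95% confidence interval -0.98 to -0.01, limma adjusted p = 0.211). The confidence intervals of EEF1A1 and EEF2 do not overlap, though neither difference passed the threshold and the pair was not tested against each other.

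EEF1E1, a scaffold protein of the multi-tRNA synthetase complex, had 13.4, 8.65 and 7.77 normalised counts in WT control and 21.7, 23.3, 25.01 and 16.4 in GATA3 KO embryos. It was the remaining member without overlap whose log2 fold change reached 1 (1.07, standard error 0.34, limma adjusted p = 0.085). Its WT mean was under the filter of 10, so it was tested only because of its level in KO embryos, as were EIF2B1 and EEF1AKMT1. EEF1B2 and EEF1G, subunits of the exchange factor of eEF1A, had log2 fold changes of 0.23 and -0.26. EEF1A2, the muscle and neuron paralog of EEF1A1, stayed at 12.4 normalised counts or below in every embryo of the GATA3 KO table and was not tested, like EEFSEC, the selenocysteine elongation factor.

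Regulators of the factors showed no call in GATA3 KO embryos. EIF4EBP1 and EIF4EBP2, repressors of eIF4E, had log2 fold changes of 0.19 (95% confidence interval -0.54 to 0.92) and -0.26 (-0.86 to 0.34). EIF2AK1, the heme-regulated eIF2 alpha kinase, had 11.05, 19.4 and 26.4 normalised counts in WT control and 20.3, 15.1, 16.7 and 13.1 in GATA3 KO embryos, all KO values inside the WT range. EIF2AK3, the eIF2 alpha kinase of the endoplasmic reticulum, EIF4EBP3 and EEF2KMT had means under 10 and were not tested.

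Counted over all 45 tested members of the GATA3 KO table, 31 (68.9%) had a log2 fold change above 0, beside 57.2% of all transcripts. For 14 members all KO embryos exceeded the WT range (31.1%), beside 11.9% of all transcripts, and for 0 they fell short of it, beside 7.05%. An unadjusted limma p under 0.05 was reached by 17 members (37.8%), beside 22.6%, of which EEF2 alone was lower. With edgeR 2 members were called (2.95% of all transcripts), and with DESeq2 3 of the 41 to which it gave an adjusted p (4.7%). Over all 52 listed members, low ones included, the 14 and 0 stayed as they were, beside 7.07 and 10.2% of all 8576 transcripts listed. The median log2 fold change of the members was 0.40.

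The scaling of the embryos bears on these counts, since the median of all tested transcripts was 0.11 in the GATA3 KO table as deposited and 0.01 after median-ratio rescaling or 0.00 after quantile normalisation. Under these, 12 and 11 members lay above every WT control embryo, and EIF3B and EEF2 lay below, beside 9.15 and 8.76% of all transcripts above and 9.58 and 9.13% below. The median of the members was 0.30 and 0.31. By factor, the medians of eIF1 (0.68 in both), eIF2 (0.73 in both), eIF4 (0.53 and 0.46) and eEF (0.12 and 0.18) stayed above 0, that of eIF3 was -0.11 and -0.16, and that of the regulators went from 0.02 to -0.08 and -0.07. EIF4A2, EIF2S1 and EIF2S3 were called under both.

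**Figure D4:**
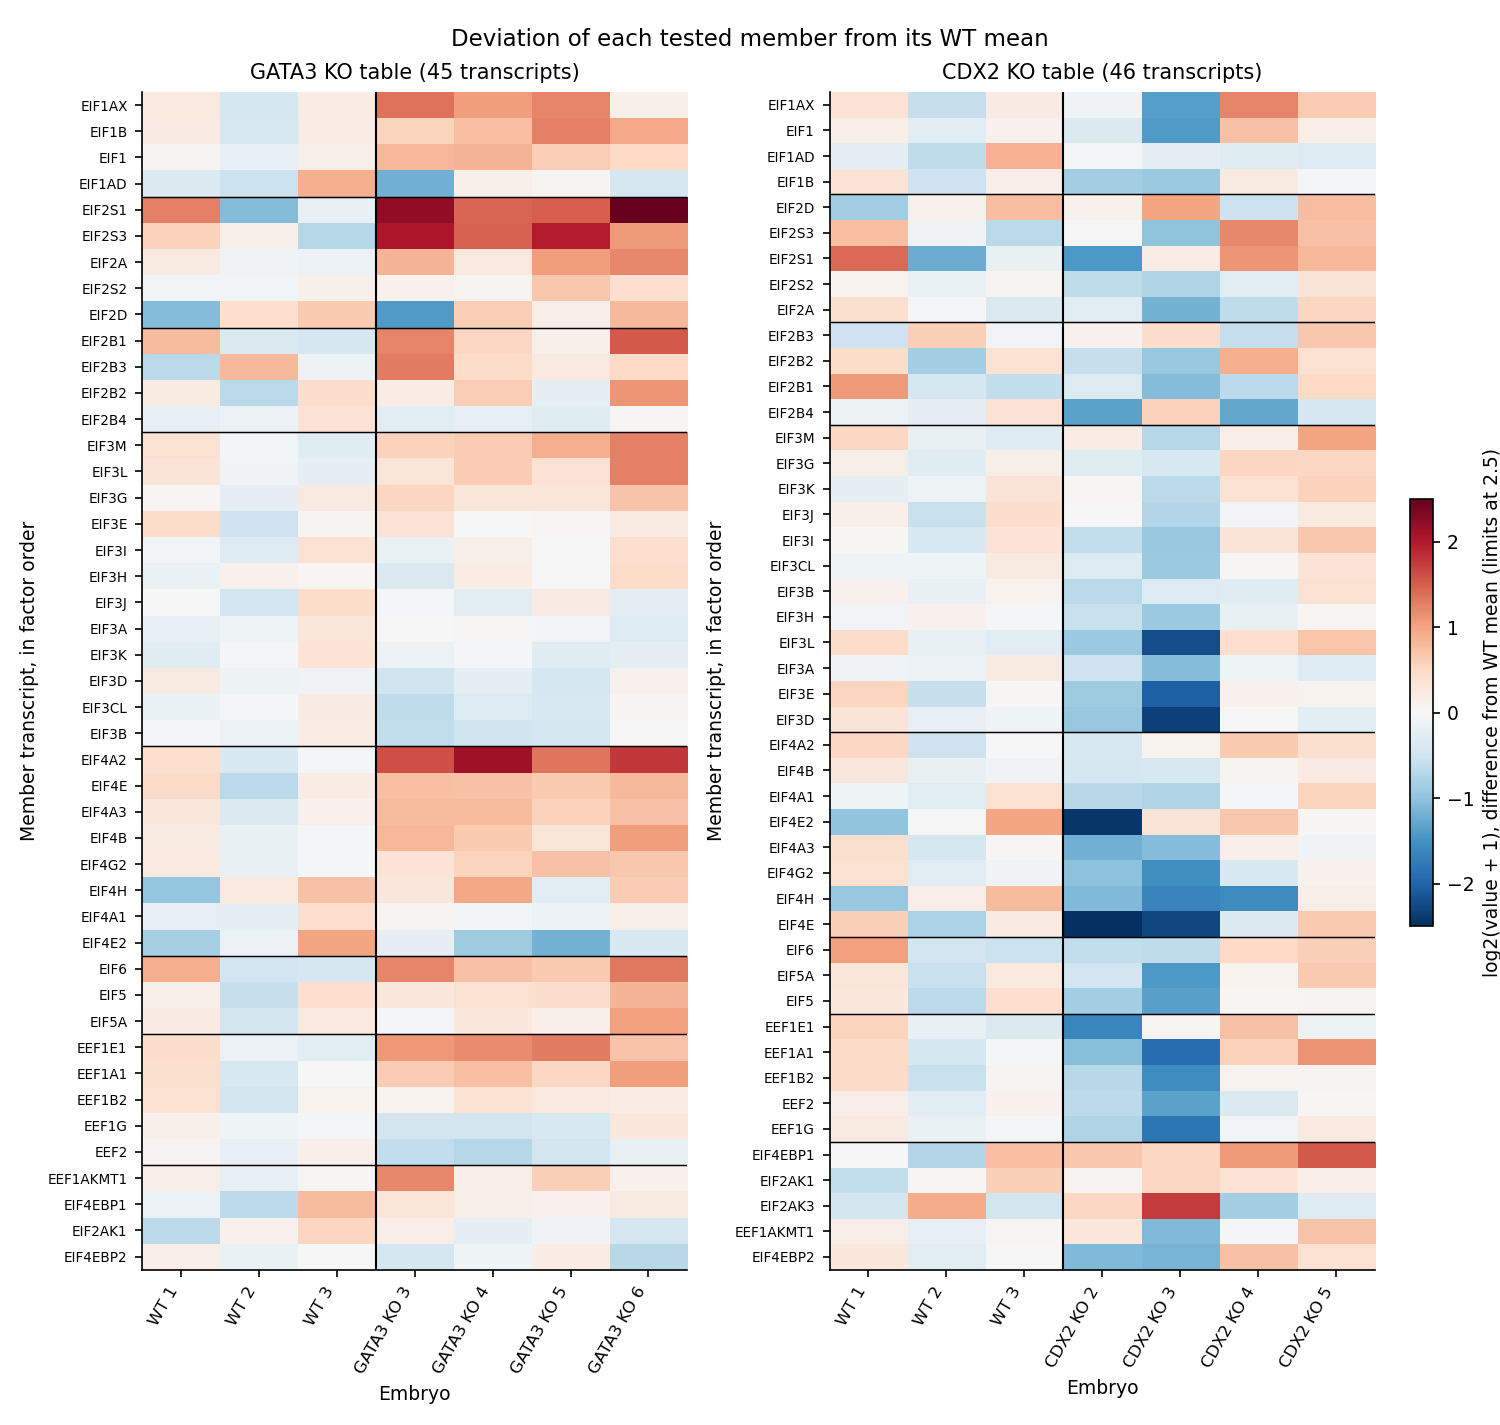
Difference of each tested member from its WT control mean, in log2(value + 1), by embryo (columns) and member in factor order (rows), with colours saturating at 2.5. In the GATA3 KO table the rows of EIF2S1, EIF2S3 and EIF4A2 are red in all 4 KO embryos, that of EIF4E2 is blue in all 4 and the eIF3 rows are mixed, and in the CDX2 KO table the columns of embryos 2 and 3 are mostly blue.

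The CDX2 KO embryos did not deviate from the controls in one direction. CDX2 KO embryo 3 was below the WT range for 35 of 46 tested members and embryo 2 for 29, beside 47.7 and 37.2% of all transcripts, whereas embryo 5 was above it for 21 and below for 3, beside 24.6 and 18.6% of all transcripts. Embryo 4 was above for 11 and below for 11, beside 25.1 and 24.2%. The median deviation of the members from the WT mean was -0.60, -0.94, 0.08 and 0.36 log2 units in embryos 2 to 5, beside -0.15, -0.39, 0.05 and 0.10 for all transcripts. Embryos 2 and 3 also had the lowest total counts of their table (218797 and 100731), and the part of depth in this was not tested.

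The members' share of all counts told the same embryos apart. It was 1.75, 1.47 and 1.90% in WT control embryos of the CDX2 KO table and 1.36, 1.13, 1.83 and 2.15% in CDX2 KO embryos 2 to 5, with 95% Wilson intervals of 1.31 to 1.41% and 1.07 to 1.196% in embryos 2 and 3. In the GATA3 KO table the share was 1.75, 1.501 and 1.94% in WT control and 1.99, 2.098, 1.95 and 2.33% in GATA3 KO embryos. All 4 GATA3 KO embryos were above the WT control embryos, but the intervals of embryos 3 (1.93 to 2.06%) and 5 (1.89 to 2.01%) overlapped that of WT control embryo 3 (1.87 to 2.01%). EEF1A1 alone held 520 of the 3316 and 583 of the 4013 member counts in GATA3 KO embryos 3 and 5. In WT control embryo 3 it held 310 of 2914, so the place of those 2 KO embryos above it rests on EEF1A1.

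**Figure D5:**
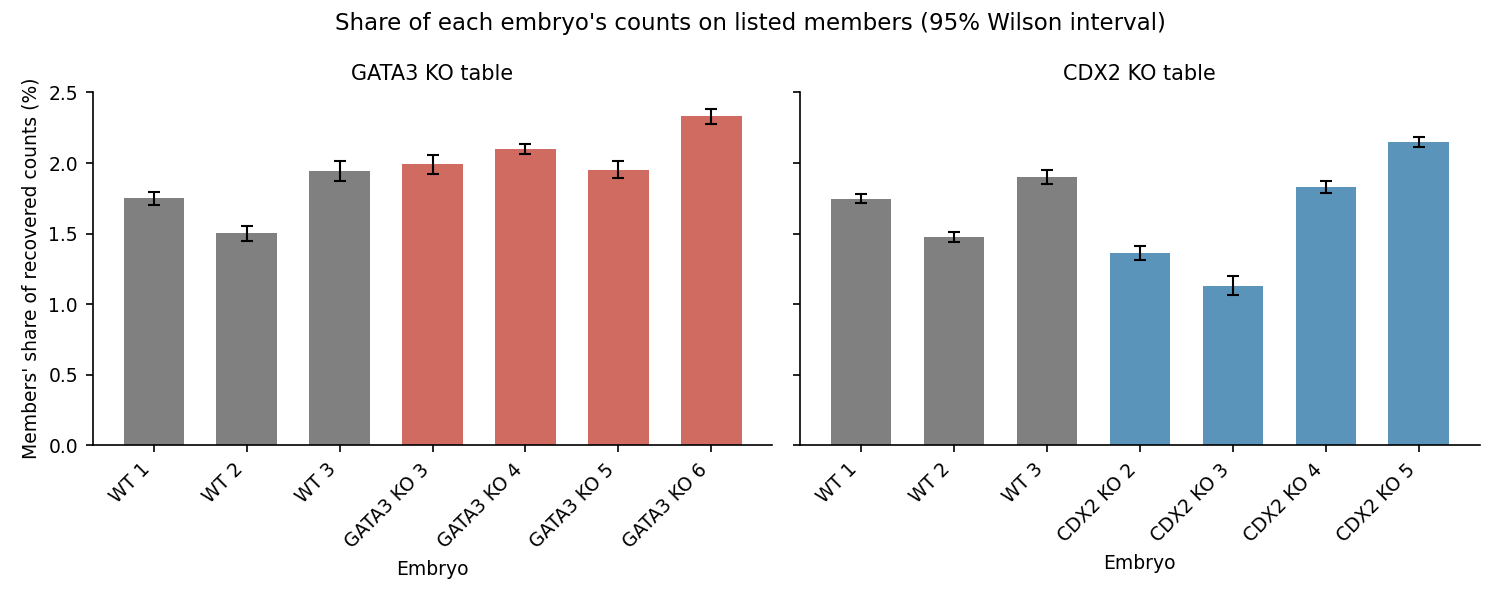
Share of each embryo's recovered counts that fell on listed members (52 in the left table, 55 in the right), with 95% Wilson intervals for counting error. Bars start at 0 and are grey for WT control, red for GATA3 KO and blue for CDX2 KO. CDX2 KO embryos 2 and 3 have the lowest shares (1.36 and 1.13%), and GATA3 KO embryo 6 the highest (2.33%).

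On the deposited scale no member of the CDX2 KO table separated from WT control: 0 of 46 lay above every WT control embryo, beside 2.52% of all transcripts, and 0 below, beside 3.36%. An unadjusted limma p under 0.05 was reached by 0 members and 3.27% of transcripts. edgeR called 0 members and 0.0175% of transcripts, and DESeq2 0 of the 38 it adjusted, beside 0.275%. A log2 fold change above 0 was found for 12 members (26.1%), beside 39.5% of transcripts, and the median was -0.24. That split depended on scaling, since 15 members were above 0 after median-ratio rescaling and 24 after quantile normalisation, beside 47.9 and 47.2% of all transcripts. Under these 1 member (EIF4EBP1) and 2 members (EIF3G and EIF4EBP1) lay above every WT control embryo, beside 3.15 and 2.78% of all transcripts, and 0 lay below.

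The members called in GATA3 KO had wide intervals in CDX2 KO. EIF4A2 had 28.5, 13.4 and 19.5 normalised counts in WT control and 14.7, 21.0, 31.5 and 26.3 in CDX2 KO embryos, a log2 fold change of 0.19 (95% confidence interval -0.73 to 1.12, limma adjusted p = 0.943). The upper bound is under its estimate in GATA3 KO. EIF2S1 (0.17, -1.31 to 1.66) and EIF2S3 (0.24, -0.95 to 1.42) also overlapped with WT control, EIF2S1 being below the WT range in embryo 2 alone and EIF2S3 below it in embryo 3 and above it in embryo 4. The difference between the 2 knockouts was not tested, because the tables were normalised separately.

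In the limma fit EIF4E was the lowest and EIF4EBP1 the highest member in CDX2 KO. EIF4E had 108, 41.1 and 82.5 normalised counts in the controls, against 6.13, 13.98, 55.6 and 114 in CDX2 KO embryos 2 to 5. Embryos 2 and 3 had 5 and 6 recovered counts, far below the controls, and embryo 5 was above all of them (log2 fold change -1.33, 95% confidence interval -3.03 to 0.36, limma adjusted p = 0.900). It ran from -1.998 (without CDX2 KO embryo 5) to -0.66 (without CDX2 KO embryo 2), was 0.66 with the Y-linked covariate, and was -0.60 with edgeR and -0.63 with DESeq2, where EIF4H, a cofactor of eIF4A, was lower (-0.93 in both). EIF4H had a KO mean of 8.95 normalised counts, so it was tested only because of its level in WT control embryos (edgeR adjusted p = 0.986). EIF4EBP1 had 25.4, 15.0 and 43.6 in WT control and 41.7, 37.3, 54.7 and 75.7 in CDX2 KO embryos. Only WT control embryo 3 reached the KO range (log2 fold change 0.95, 95% confidence interval -0.02 to 1.93, limma adjusted p = 0.900), and after median-ratio or quantile scaling the groups did not overlap.

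By factor, the CDX2 KO medians ran from -0.52 for eEF, where all 5 tested members were below 0, to 0.17 for eIF2 and 0.28 for the regulators, beside -0.15 over all transcripts. The regulator median is the value of EIF2AK3, whose WT mean was under the filter of 10, so that it was tested only because of its level in KO embryos. Leaving out 1 embryo at a time, the eIF2 median ran from -0.40 (without WT control embryo 2) to 0.31 (without CDX2 KO embryo 2) and that of the regulators from 0.04 (without WT control embryo 1) to 0.32 (without CDX2 KO embryo 5). Without embryos 2 and 3, an alternative added after the data were seen, the medians of eEF (0.09), eIF4 (0.14), eIF3 (0.14), eIF5 and eIF6 (0.37) and eIF1 (0.28) were above 0. Embryos 2 and 3 were the lowest CDX2 KO embryos for these factors, so that choice by itself raised the medians. After quantile normalisation those of eIF3 (0.12) and of eIF5 and eIF6 (0.03) were above 0 as well. EEF1A1 was at 1005, 528 and 697 normalised counts in WT control and 343, 191, 1075 and 1563 in CDX2 KO embryos (log2 fold change -0.32, 95% confidence interval -1.70 to 1.07). EEF2 had a log2 fold change of -0.58 (-1.49 to 0.32), with 3 of 4 embryos below the controls. EIF3D was the lowest eIF3 subunit (-0.89, -2.03 to 0.25) and EIF3M the highest (0.16). EEF2K, the kinase that inhibits eEF2, had 0, 8.69 and 2.29 normalised counts in WT control and 11.03, 11.7, 5.81 and 2.15 in CDX2 KO embryos and was not tested. EIF2AK2, the double-stranded RNA-dependent eIF2 alpha kinase, was at 11.7 or below in every embryo. The signs of the eEF members changed with the Y-linked covariate, which sets embryo 5 alone against WT control. Their log2 fold changes were then 1.12 (EEF1A1), 0.24 (EEF1G), 0.07 (EEF1B2), 0.03 (EEF2) and -0.13 (EEF1E1, still below 0).

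Spread between embryos of one group is given here as the coefficient of variation. Its median among WT control embryos was 25.2% for tested members and 28.5% for all transcripts in the GATA3 KO table, and 20.8 and 26.8% among GATA3 KO embryos. In the CDX2 KO table it was 30.7 and 34.0% among WT control embryos and 48.5 and 47.2% among CDX2 KO embryos, the latter becoming 39.4 and 45.4% after median-ratio rescaling and 35.8 and 45.5% after quantile normalisation. Among tested members of the GATA3 KO table, EEF1G (7.82%) and EIF2S2 (8.37%) were the steadiest in WT control embryos and EIF2S1 (86.5%) the most variable. For the same embryos in the CDX2 KO table these were EIF3H (6.34%) and EIF2S2 (9.19%), with EEF1G at 14.2%, and again EIF2S1 (93.6%).

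Partners of the factors were followed in 6 lists: termination and recycling, poly(A)-binding and mRNA-level regulators, the integrated stress response, mTORC1, modification of the factors, and mitochondrial factors. Of their 54 genes, 44 were listed and 26 transcripts tested in the GATA3 KO table, of which 1 was called higher, 0 lower, and 18 had a log2 fold change above 0, beside 1.55, 0.468 and 57.2% of all transcripts tested. The one called was RHEB, the small GTPase that activates mTORC1, with 8.86 ± 3.24 (SD, n = 3) normalised counts in WT control and 27.2 ± 2.30 (SD, n = 4) in GATA3 KO embryos (log2 fold change 1.57, limma adjusted p = 0.025). Its WT mean was under the filter of 10, so RHEB too was tested only because of its level in KO embryos. The other tested genes of the mTORC1 list went both ways and were not called: RPTOR (-1.03, limma adjusted p = 0.146), DDIT4 (0.22) and RPS6KB1 (0.11). Just outside the threshold were PAIP2, an inhibitor of the poly(A)-binding protein (0.89), and the helicase DDX3X (1.12), each with a limma adjusted p of 0.056. Among the transcripts of the CDX2 KO comparison 45 were listed, 30 tested, 0 called and 9 above 0, beside 0.0% called and 39.5% above 0 over all transcripts.

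Some cell type markers also changed in GATA3 KO embryos. Of 8 trophectoderm markers 5 were tested: GATA3 and GATA2 (log2 fold change -1.16, limma adjusted p = 0.034) were called lower and TFAP2C (1.03, limma adjusted p = 0.044) higher, KRT18 was at -0.77 and KRT8 at -0.09, and the median was -0.77. Of the untested, ELF3 had a mean of 14.2 normalised counts in the controls and 5.34 in KO embryos, CDX2 7.16 and 2.201, and TFAP2A 7.01 and 3.32. The summed level, mostly KRT8 and KRT18, ran from 3219 to 7344 normalised counts over the WT controls, with 3381 to 4881 over the GATA3 KO embryos. Of 5 inner cell mass or epiblast markers 3 were tested and 0 called: the pluripotency genes POU5F1, SOX2 and NANOG had log2 fold changes of 0.00, -0.95 and -1.10 (limma adjusted p = 0.998, 0.206 and 0.412). With a KO mean of 8.58 normalised counts, SOX2 was tested only because of its level in WT control embryos. NANOG varied widely in KO embryos (14.4 ± 1.58, SD, n = 3, in WT control against 10.4 ± 9.03, n = 4). The summed level of that list ran from 116 to 149 normalised counts over the WT controls and from 55.0 to 175 over the GATA3 KO embryos. Of 4 primitive endoderm markers 3 were tested and 0 called, with HNF4A at -1.40 (limma adjusted p = 0.227), PDGFRA at -0.42 and FN1 at 0.14. The part of these markers in the changes of the members was not tested.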

How the data were processed

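Single-embryo Smart-seq2 libraries from polyadenylated RNA, without molecular identifiers, were trimmed by the authors with Trimmomatic, mapped to ARS-UCD1.2 with Hisat2, counted with featureCounts and normalised with DESeq2. Both deposited tables hold, per embryo, a signal, namely the read count over that embryo's size factor. The authors' fold changes and p-values in the same tables were not used. Values were whole multiples of 1 step in 100.0% of cases (within 0.1), which gave the counts. Strand setting and treatment of multi-mapped reads are not given in the sources used here.

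Symbols came from RefSeq (ARS-UCD2.0), which named 98.6% of transcripts. The main test was limma 3.58.1 (in R 4.3.3, trended prior) for log2(value + 1) at a mean of at least 10, within 1 table. The test planned for counts gave way to this one because the deposited values were normalised. Medians and shares were computed in Python 3.11.15. Alternatives were pseudocounts of 0.1 and 5, no filter or a mean of at least 100, 2 rescalings, other fold change thresholds, edgeR 4.0.16 and DESeq2 1.42.0 on recovered counts, a Y-linked covariate and leaving out each embryo. Leaving out CDX2 KO embryos 2 and 3 together and halved counts were added after the data were seen.

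Members and lists were chosen with earlier results of these data known. Named were members past the threshold, members without overlap and a log2 fold change of 1 or more, a list by role, and the highest and lowest of each factor. Other names were chosen after their values were seen. On simulated counts with 200 genes changed by 2 log2 units, limma recovered 88% in the GATA3 KO design and 52% in that of CDX2 KO. 3 counts, taken as the floor, were 4.53 to 29.8 CPM, for counting error only.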

Additional observations from a re-analysis of the deposited data

Results flagged for a closer look

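EEF1A2 (NM_001037464) had 28.0 normalised counts in CDX2 KO embryo 3, against 1.66 to 4.90 in the other CDX2 KO embryos, and stood far from them by Dixon's criterion for groups of 4. The value rests on 12 recovered counts in the embryo with the fewest counts of its table. EEF1A2 was 12.8% of the counts of EEF1A1 and EEF1A2 there (95% Wilson interval 7.46 to 21.0%) and 0.15 to 1.41% in the other CDX2 KO embryos. Chance alone gives such a value in about 1 of 20 groups of this size, and 18 and 19 sets of 4 KO values were examined in the GATA3 KO and CDX2 KO tables, so this single value is no more than chance would give.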

How the results depend on the processing

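The number of members called in GATA3 KO was 3, and 2 or 3 with other pseudocounts, no filter, both rescalings, edgeR, DESeq2 and other fold change thresholds. It was 0 with a mean of at least 100, a filter that none of the 3 passes, and 0 with the Y-linked covariate. Leaving out 1 embryo gave 0 to 7: it was 0 without WT control embryo 2, GATA3 KO embryo 3 or GATA3 KO embryo 4, 1 without WT control embryo 3 (EIF4A2), and 7 without WT control embryo 1 (EEF1A1, EIF2S1, EIF2S3, EIF3M, EIF4A2, EIF4E and EIF6). Calls over all 4271 transcripts moved as well, from 86 in the main fit to 1, 1, 2, 18 and 293 in these 5 fits. The cause was not tested. In CDX2 KO the number was 0 under every alternative run, also without embryos 2 and 3 together and with halved counts, although limma recovered only 52% of 4-fold changes in the simulation of that design. No fold change of a called member changed sign. No paired analysis was possible because the KO columns carry numbers (3 to 6 and 2 to 5) that are not the replicate numbers of the labels. In GATA3 KO the eIF3 median was -0.16 after quantile normalisation and -0.11 after median-ratio rescaling, and that of eIF4 0.46 after quantile normalisation. With a mean of at least 100 the medians were 0.31 for eIF2, -0.27 for eIF3, 0.29 for eIF4 and -0.02 for eEF. Leaving out 1 embryo moved the eIF3 median from -0.13 (without WT control embryo 2) to 0.12 (without WT control embryo 3), that of eEF from -0.001 (without WT control embryo 2) to 0.41 (without WT control embryo 1), that of eIF5 and eIF6 from 0.20 (without WT control embryo 2) to 0.70 (without WT control embryo 3), and that of the regulators from -0.11 to 0.33 (without the same 2 embryos). In CDX2 KO the medians of eIF1, eIF2, eIF2B, eIF3 and of eIF5 and eIF6 each took both signs when 1 embryo was left out, from -0.62 (eIF5 and eIF6, without CDX2 KO embryo 5) to 0.31 (eIF2, without CDX2 KO embryo 2). Depth limits members with a WT mean near 10, where a few counts decide the value.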
